A study of Mus musculus with 9 samples.

Results

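The genes of the proteasome were followed in bone marrow-derived mast cells (BMMCs) from C57BL/6 mice in 3 groups of 3 RNA-seq libraries. Members were the protein-coding genes whose symbol is Psma, Psmb, Psmc, Psmd, Psme, Psmf or Psmg followed by a number, and the rule found 48 of the 47643 genes in the deposited count table. They comprised 8 alpha and 7 beta subunits of the 20S core, 3 immunoproteasome subunits, 4 chaperones of core assembly, 6 ATPase and 11 non-ATPase subunits of the 19S regulatory particle, 3 chaperones of 19S assembly, 4 activators, 1 inhibitor and the thymoproteasome gene Psmb11. Of the 48, 47 passed the filter of a median above 1 CPM, counts scaled to a common library size, over the 9 libraries. Psmb11, whose product is known from thymic epithelium, had 0 counts in every library, which allows a level of up to 0.121 to 0.291 CPM depending on the depth of the library. That limit covers counting error alone.

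By their treatment labels, Control cells were untreated, BSA cells carried anti-DNP IgE and received DNP-BSA, and BSA + luteolin cells had the same IgE and antigen with luteolin, a plant flavonoid. Luteolin at 10 μM for 24 h stands in the protocol text of every sample, Control and BSA included, and is taken here as the dose of the BSA + luteolin group, since only that group has luteolin in its title and treatment label. The order of luteolin and antigen is not clear from the study's text, and neither the mice behind each library nor their age is given, so the p-values below measure the spread between these libraries, which may be technical. All cells were grown from marrow in WEHI-3-conditioned medium for at least 4 weeks, a culture that yields immature mast cells. In bulk RNA of this kind, fewer cells of a type and less RNA per cell cannot be told apart.

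Proteasomes degrade proteins tagged with ubiquitin. The 20S core is a barrel of alpha rings around beta rings, and the beta subunits encoded by Psmb5, Psmb6 and Psmb7 carry the proteolytic sites. The 19S particle recognises ubiquitin chains and unfolds the substrate with its ATPases. In many immune cells the catalytic subunits are exchanged in part for Psmb8, Psmb9 and Psmb10, and this immunoproteasome is known for making peptides for MHC class I.

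Library size ranged from 9515004 to 24605689 counts. Control replicate 1 stood apart from the other 2 Control libraries. The chi-square per degree of freedom over all genes was 82.1 and 131 between it and those libraries, against 6.14 between Control 2 and Control 3, and over all genes it lay nearer to the mean of the BSA + luteolin group than to that of the other Control libraries. The summed level of 7 mast cell markers was 50060 to 71490 CPM over the 9 libraries, with the highest value in Control 1. The proteases Cpa3 and Tpsb2 made up most of that sum, while Kit was at 1749 CPM in Control 1, below the 8 other libraries, and at 2306 and 2481 CPM in Control 2 and 3. Summed B cell and T cell markers stayed at or under 0.775 and 0.145 CPM, Ms4a1 and Cd3e had 0 counts in all libraries, and erythroid markers reached 2.7 CPM. Macrophage and monocyte markers summed to 351 to 409 CPM over the 9 libraries. Summed neutrophil markers, in contrast, were 209 CPM in Control 1 and 5.65 CPM in the lowest Control library, 140 to 153 CPM in the BSA libraries and 162 to 191 CPM in the BSA + luteolin libraries. The 2 basophil markers together were at 1191 CPM in Control 1 and 630 CPM in the lowest Control library, 805 to 888 CPM with BSA and 909 to 1024 CPM with BSA + luteolin. Of these Mcpt8 was at 432, 21.8 and 18.7 CPM in the Control libraries and at 292 to 330 CPM with BSA, while Prss34 was at 759, 651 and 611 CPM in the Control libraries and at 513 to 558 CPM with BSA. The part of these markers in the results below was not tested.

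What luteolin added to stimulated cells was read from BSA + luteolin against BSA. Most proteasome genes were higher with luteolin, by small steps. Of 47 members, 31 rose and 2 fell at an adjusted p under 0.05 (edgeR quasi-likelihood test, Benjamini-Hochberg over all 11560 genes tested), while 18.1% of all genes rose and 21.9% fell. The median log2 fold change was 0.22 over the members and 0.02 over all genes tested, and 43 members were above 0. Those that rose did so by log2 0.16 to 0.55. In 31 members, not all of them among those called, all 3 luteolin libraries lay above all 3 BSA libraries, and in 2 they lay below, against 24.1% and 26.2% of all genes. The number of members called higher depended on the fit, as given below. It was 0 with all 9 libraries in the fit (1.52% of all genes) and 14 with exon length as an offset (15.2%).

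**Figure D1:**
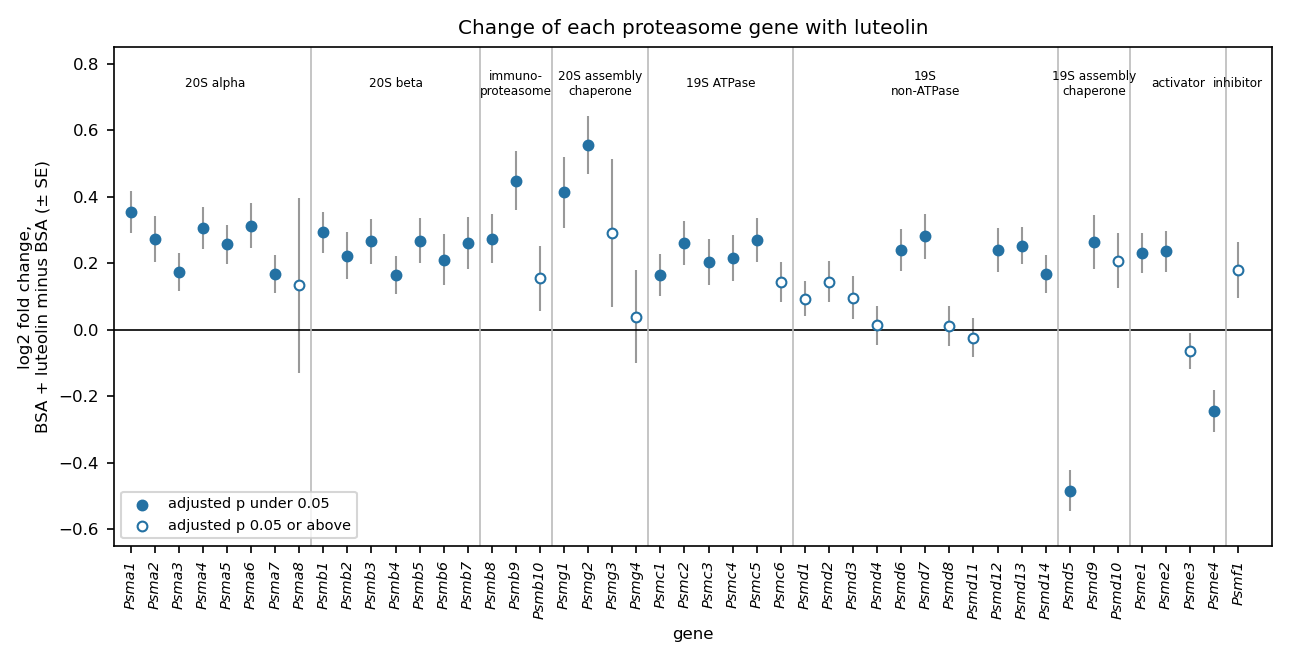
Change of each of 47 proteasome genes with luteolin, as the log2 fold change of BSA + luteolin minus BSA (vertical axis) with its standard error (bars), by class of gene along the horizontal axis. Filled points passed an adjusted p of 0.05. The 7 constitutive beta subunits are all filled and above 0, while Psmd5 and Psme4 are the 2 filled points below 0.

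The proteolytic subunits of the constitutive core all passed the test. Psmb5, the chymotrypsin-like site, was at 55.6, 59.0 and 53.0 CPM in the BSA libraries and at 65.2, 71.1 and 65 CPM in the BSA + luteolin libraries, with no overlap. Its mean was 55.9 ± 3.03 CPM (SD, n = 3) with BSA and 67.1 ± 3.46 CPM with BSA + luteolin, and it rose by log2 0.27 (SE 0.07, adjusted p = 0.00553). Psmb7, the trypsin-like site, was at 56.0, 57.9 and 52.0 CPM with BSA and at 72.4, 67.3 and 58.6 CPM with BSA + luteolin. Its groups were likewise separate, though luteolin replicate 3 lay just above the highest BSA library, and the change was log2 0.26 (SE 0.08, adjusted p = 0.0148). Psmb6, the caspase-like site, was at 101, 120 and 98.9 CPM with BSA and at 127, 130 and 111 CPM with BSA + luteolin. It passed the test at log2 0.21 (SE 0.08, adjusted p = 0.0398), but luteolin replicate 3 was below BSA replicate 2. The other beta subunits, Psmb1, Psmb2, Psmb3 and Psmb4, form the rest of the ring and also rose. All 7 thus passed, with a median log2 change of 0.26, while 18.1% of all genes rose. With exon length as an offset 2 of the 7 passed, Psmb1 and Psmb7, at a median of 0.07, while 15.2% of all genes rose. Psmb5 (0.06, adjusted p = 0.478) and Psmb6 (0.07, adjusted p = 0.394) were among those lost.

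The alpha subunits, which form the outer rings and the gate of the barrel, rose in 7 of 8 cases, against 18.1% of all genes. Their median was again 0.26. With exon length as an offset 3 of 8 passed, at a median of 0.13, against 15.2% of all genes. Psma1 had the largest change among the alpha subunits. It was at 181, 192 and 171 CPM with BSA and at 243, 236 and 214 CPM with BSA + luteolin, and the rise was log2 0.35 (SE 0.06, adjusted p = 0.000331). Psma6 was at 129, 133 and 116 CPM with BSA and at 165, 160 and 144 CPM with BSA + luteolin, a rise of log2 0.31 (SE 0.07, adjusted p = 0.0015) that was at 0.13 with the length offset (adjusted p = 0.0525). In both genes every luteolin library exceeded every BSA library. The member that did not pass was Psma8, an alpha subunit known from testis, whose level was only 1.8 to 2.71 CPM over the 9 libraries.

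Among the immunoproteasome subunits, Psmb8 and Psmb9 rose and Psmb10 did not pass the test. Psmb9 (ENSMUSG00000096727, chr17:34181987-34187764, minus strand) was at 32.0, 32.1 and 26.2 CPM in the BSA libraries and at 42.7, 41.3 and 38.9 CPM in the BSA + luteolin libraries. The groups were far apart, with means of 30.1 ± 3.39 and 41.0 ± 1.93 CPM and a rise of log2 0.45 (SE 0.09, adjusted p = 0.000773). Psmb9 lies head to head with Tap1, the class I peptide transporter, on the opposite strand, and the annotated genes overlap. The strand setting of the counting is not given in the sources used here, so some reads in the overlap may belong to the neighbour. The same holds for Psmb7 with Nek6 and Psmd13 with Sirt3. Neighbours with 1113 to 2933 counts over all libraries also overlap Psme1 (Emc9), Psmc3 (Slc39a13), Psma3 (3110056K07Rik) and, on the same strand, Psma2 (AW209491). Tap1 was at 94.7, 96.7 and 99.3 CPM with BSA and at 118, 112 and 115 CPM with BSA + luteolin and rose by log2 0.25 (SE 0.06, adjusted p = 0.00203). Psmb8 (chr17:34197721-34201454, plus strand) was at 103, 112 and 95.8 CPM with BSA and at 135, 127 and 113 CPM with BSA + luteolin. Its lowest luteolin library exceeded its highest BSA library by a small margin, and the change was log2 0.27 (SE 0.07, adjusted p = 0.00757). Psmb10 was at 27.7, 32.3 and 27.7 CPM with BSA and at 31.1, 36.8 and 29.2 CPM with BSA + luteolin, so the groups overlapped, and the difference of log2 0.15 had an adjusted p of 0.223.

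Because Psmb8, Psmb9 and Psmb10 take the places of Psmb5, Psmb6 and Psmb7, their levels per kilobase of exon were set against each other within each library. The ratio of Psmb9 to Psmb6 was 0.162, 0.137 and 0.135 with BSA and 0.172, 0.162 and 0.179 with BSA + luteolin. The groups did not overlap by a narrow margin, and in Control it was 0.156 in replicate 1 and 0.241 and 0.242 in the others, which were the highest of all. The ratio of Psmb8 to Psmb5 was 0.492, 0.507 and 0.480 with BSA, 0.550, 0.476 and 0.462 with BSA + luteolin, and 0.412, 0.709 and 0.685 in Control. Here the stimulated groups overlapped and Control 2 and 3 again lay above both. For Psmb10 to Psmb7 the ratio ran from 0.863 to 1.12 over the 9 libraries, and the 3 groups overlapped. These ratios carry no test, and exon lengths from the annotation may exceed those of the transcripts in mast cells.

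**Figure D2:**
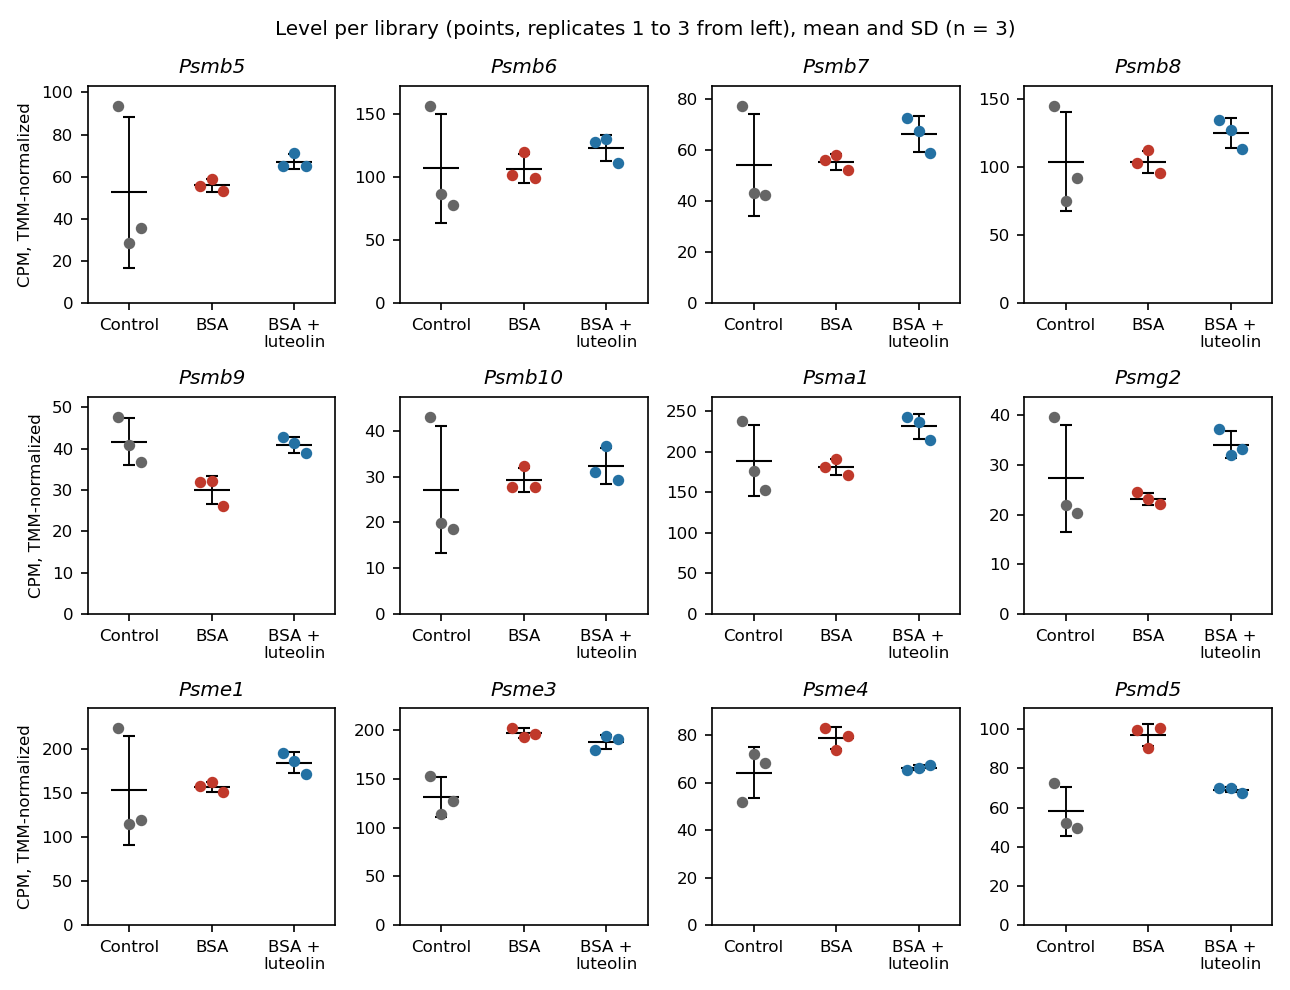
Level of 12 proteasome genes in TMM-normalized CPM (vertical axes from 0) in Control, BSA and BSA + luteolin libraries. Points are libraries, replicates 1 to 3 from left, and bars give the mean and SD of 3. In Psmb5 to Psmb8 Control 1 lies above every other library, Psmb9 is lowest with BSA, and Psmd5 is highest with BSA.

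The chaperones that assemble the core held the largest rise. Psmg2, which pairs with Psmg1 to guide the alpha ring, was at 24.5, 23.1 and 22.1 CPM with BSA and at 37.1, 31.9 and 33.2 CPM with BSA + luteolin, a rise of log2 0.55 (SE 0.09, adjusted p = 9.82e-05). Its partner Psmg1 was at 20.0, 22.6 and 19.6 CPM with BSA and at 32.2, 25.2 and 25.2 CPM with BSA + luteolin, a rise of log2 0.41 (SE 0.11, adjusted p = 0.00594). Both pairs of groups were separate, but with the length offset Psmg1 was at 0.24 (adjusted p = 0.0584), while Psmg2 passed at 0.41 (adjusted p = 0.000855). Psmg3 and Psmg4, the other pair of core chaperones, were measured at no more than 11.7 CPM and did not pass the test. Their log2 differences were 0.29 (SE 0.22) and 0.04 (SE 0.14).

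Of the 6 ATPases of the 19S particle, which form the ring that unfolds substrates, 5 rose, from log2 0.16 in Psmc1 to 0.27 in Psmc5, and Psmc6 was at 0.14 (adjusted p = 0.0669). Of the 11 non-ATPase subunits 5 rose, with a class median of 0.14, and 18.1% of all genes rose. With exon length as an offset 1 ATPase (median 0.09) and 3 non-ATPases (median 0.10) passed, where 15.2% of all genes rose. No difference between classes was tested. Without the offset the 5 non-ATPases that rose were Psmd6, Psmd7, Psmd12, Psmd13 and the deubiquitinase Psmd14, at log2 0.17 to 0.28. The scaffold subunits Psmd1 and Psmd2 and the ubiquitin receptor Psmd4 did not pass without it, at log2 0.09, 0.14 and 0.01. Nor did Psmd3, Psmd8 and Psmd11. The 3 that passed with the offset were Psmd7, Psmd13 and Psmd1, the last at log2 0.17 (adjusted p = 0.0168). Levels per kilobase of annotated exon differed widely within the complex. In BSA cells the ATPases ran from 23.5 CPM per kilobase in Psmc2 to 89.5 in Psmc5. The non-ATPases ran from 18.2 in Psmd11 to 79.4 in Psmd2, and the beta subunits from 16.2 in Psmb7 to 98.7 in Psmb2. Exon length enters these values, as Psmc2 and Psmc5 had similar means of 118 and 125 CPM at 5031 and 1394 bases. Annotated lengths may exceed those of the transcripts in mast cells, so the spans need not be differences in mRNA level.

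Psmd5 (ENSMUSG00000026869, chr2:34849734-34874968, minus strand), a chaperone that holds 19S ATPases before assembly, went the other way. It was at 99.5, 90.5 and 101 CPM in the BSA libraries and at 70.0, 69.8 and 67.7 CPM in the BSA + luteolin libraries, with means of 97.0 ± 5.61 and 69.2 ± 1.31 CPM. It fell by 0.48 on the log2 scale (SE 0.06, adjusted p = 1.07e-05), and no luteolin library came near a BSA library. Control libraries stood at 72.6, 52.2 and 49.5 CPM, so all 3 BSA libraries were above every Control library. The other chaperones of 19S assembly differed from it. Psmd9 rose by log2 0.26 (adjusted p = 0.0179), and Psmd10 (gankyrin) was at log2 0.21 (adjusted p = 0.0562).

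Of the 4 activators 2 rose and 1 fell, against 18.1% and 21.9% of all genes. Psme1 and Psme2, the subunits of the interferon-inducible 11S cap PA28, both rose, though neither passed with exon length as an offset. Psme1 was at 158, 163 and 151 CPM with BSA and at 195, 186 and 171 CPM with BSA + luteolin (log2 0.23, SE 0.06, adjusted p = 0.00659), and Psme2 was at 128, 120 and 117 CPM and at 147, 149 and 133 CPM (log2 0.24, SE 0.06, adjusted p = 0.00666). Neither gene had overlapping groups, but Psme2 has a near copy in Psme2b, with 520 counts over all libraries, and reads may be split between them. The nuclear activator Psme3 was at 203, 193 and 196 CPM with BSA and at 180, 194 and 191 CPM with BSA + luteolin, which overlapped at log2 -0.06 (adjusted p = 0.37). Psme4 (chr11:30771726-30880361, plus strand), the large activator PA200, was at 83.1, 73.6 and 79.5 CPM with BSA and at 65.3, 66.1 and 67.3 CPM with BSA + luteolin. It fell by 0.25 on the log2 scale (SE 0.06, adjusted p = 0.00573), with no overlap, though with library size alone as the scaling it was at -0.13 (adjusted p = 0.1). The inhibitor Psmf1 was at log2 0.18 (adjusted p = 0.097), and with exon length as an offset it passed at 0.23 (adjusted p = 0.0404).

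When all 9 libraries shared 1 estimate of the spread, 0 members rose or fell by the same test, against 1.52% and 7.93% of all genes, with 3 and 1 at an unadjusted p under 0.05. The median log2 change of the members was still 0.22. Psmb9 (log2 0.45) and Psmd5 (-0.49) kept their size and were then at adjusted p = 0.0546 and 0.0549, with standard errors of 0.13 and 0.14. With exon length as an offset 14 members rose and 2 fell (15.2% and 20.0% of all genes), 12 of the 14 and 1 of the 2 were among the calls above, and the median log2 change of the members was 0.10. Leaving out 1 library gave 17 higher members without BSA + luteolin replicate 1, 18 without BSA + luteolin replicate 2 and 19 without BSA replicate 3, where 10.5%, 10.7% and 12.6% of all genes were higher. It gave 22 to 34 otherwise (11.5% to 19.9% of all genes), with 2 lower each time. Markers moved in this comparison too, as the summed mast cell markers were 50850 to 56620 CPM with BSA and 60760 to 70360 CPM with BSA + luteolin, 4 of those 7 genes rose and Hdc fell. Both basophil markers and 2 of 6 neutrophil markers, S100a8 (log2 0.43, adjusted p = 0.00236) and S100a9 (log2 0.32, adjusted p = 0.00164), rose as well, and the part of all these markers in the rise of the members was not tested.

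The members were shorter than most genes, with a median exon length of 2808 bases against 4397 bases over all genes tested, and 38 of 47 were below the latter. Over all genes the change with luteolin fell with length (Spearman rho -0.32, across genes, which are not independent replicates), and over the members rho was -0.27. Among genes of 2000 to 4000 bases the median log2 change was 0.10 over all 3457 genes and 0.24 over 23 members. Among genes of 1000 to 2000 bases it was 0.17 over 1219 genes and 0.23 over 12 members, and at 4000 bases or more it was -0.07 over 6423 genes and 0.12 over 10 members. In each of these 3 ranges the members' median was above that of all genes, and in the range under 1000 bases, with 2 members, it was below, at 0.15 against 0.21. Under the length offset Psmb8 (log2 0.20, adjusted p = 0.0225), Psmb9 (0.39, adjusted p = 0.00121) and Psmd5 (-0.41, adjusted p = 2.38e-05) still passed. Psme1 (adjusted p = 0.117) and Psme2 (log2 0.09, adjusted p = 0.217) no longer passed. Psme4 was then at -0.14 (adjusted p = 0.0791) and Psme3 passed at -0.16 (adjusted p = 0.0242). The part of transcript length in the rise of the members was not tested beyond this.

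**Figure D3:**
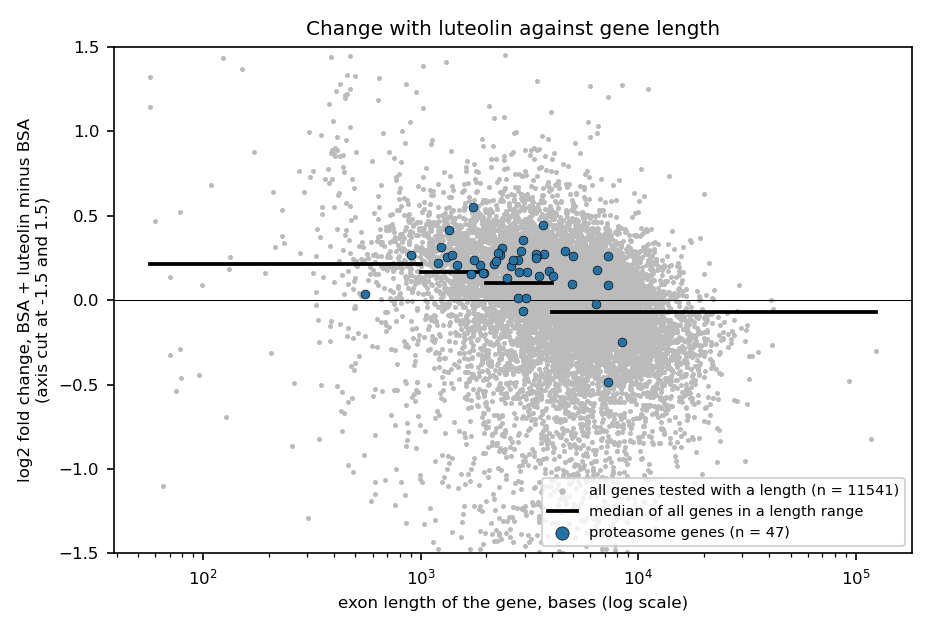
Log2 fold change of BSA + luteolin minus BSA (vertical axis, ended at -1.5 and 1.5, which leaves out 338 genes) against exon length in bases (horizontal log axis) for 11541 genes. Grey points are all genes tested, blue points the 47 proteasome genes, and lines the median of all genes in a length range, which drops from 0.21 under 1000 bases to -0.07 at 4000 bases or more.

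Promoter sequence was read for 40 members that matched a RefSeq window on GRCm38.p6 by symbol, from 250 bases before to 50 bases after the annotated start. Motifs were searched on both strands. The 7 stretches printed are of members described above, 61 bases each, 5′ to 3′ on the strand of the gene, with the match in capitals. Psmb5 and Psmb6 carry the antioxidant response element core TGACNNNGC, through which Nfe2l1 and Nfe2l2 are known to act on proteasome genes. It was also found in Psmd9 and Psmd12, which rose, in Psmc6, which did not pass, and in Psme4, which fell. Psmb8 carries the palindrome TTCNNNGAA. Psma6 and Psmg1, which rose, and Psme3 and Psme4, which did not rise, all carry the ETS core CCGGAAG.
Psmb5: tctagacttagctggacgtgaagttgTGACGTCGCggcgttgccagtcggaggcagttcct
Psmb6: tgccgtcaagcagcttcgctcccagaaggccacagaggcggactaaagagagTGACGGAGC
Psmb8: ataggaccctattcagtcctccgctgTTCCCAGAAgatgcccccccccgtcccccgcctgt
Psma6: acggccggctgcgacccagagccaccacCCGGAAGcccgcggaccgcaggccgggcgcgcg
Psmg1: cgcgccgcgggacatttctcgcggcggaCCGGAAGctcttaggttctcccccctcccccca
Psme3: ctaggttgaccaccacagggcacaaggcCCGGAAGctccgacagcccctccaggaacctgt
Psme4: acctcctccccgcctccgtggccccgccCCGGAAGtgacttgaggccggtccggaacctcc
The stretches lie at chr14:54618008-54618068 (- strand) for Psmb5, chr11:70525296-70525356 (+ strand) for Psmb6, chr17:34198072-34198132 (+ strand) for Psmb8, chr12:55398665-55398725 (+ strand) for Psma6, chr16:95990997-95991057 (- strand) for Psmg1, chr11:101316078-101316138 (+ strand) for Psme3 and chr11:30771694-30771754 (+ strand) for Psme4. The printed match begins 47 bases before the RefSeq start in Psmb5, 9 in Psmb6, 97 in Psmb8, 132 in Psma6, 69 in Psmg1, 107 in Psme3 and 53 in Psme4.

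The share of members with each motif was set against that of all genes with a window, each gene counted once. TGACNNNGC was present in 6 of 40 members (15.0%) and in 14% of 27025 genes with windows of the same length. It was in 17.4% of the genes tested here that had a window. CCAAT was in 35.0% of the members, 41.1% of all these genes and 43.1% of those tested. GGGCGG was in 57.5%, 38.2% and 69.3%, and TTCNNNGAA in 7.5%, 9.55% and 8.38%. CCGGAAG was in 14 of 40 members (35.0%), in 9.93% of all genes with a window, and in 21.7% of those tested. The change was compared with and without a motif as a description. The median log2 change with luteolin was 0.22 for the 6 members with TGACNNNGC, which ran from -0.25 to 0.27, and 0.22 for the 33 tested without it, and for CCGGAAG it was 0.20 with and 0.22 without. Psmd5, which fell, held 3 matches to GGGCGG and none to the other motifs in its window.

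**Figure D4:**
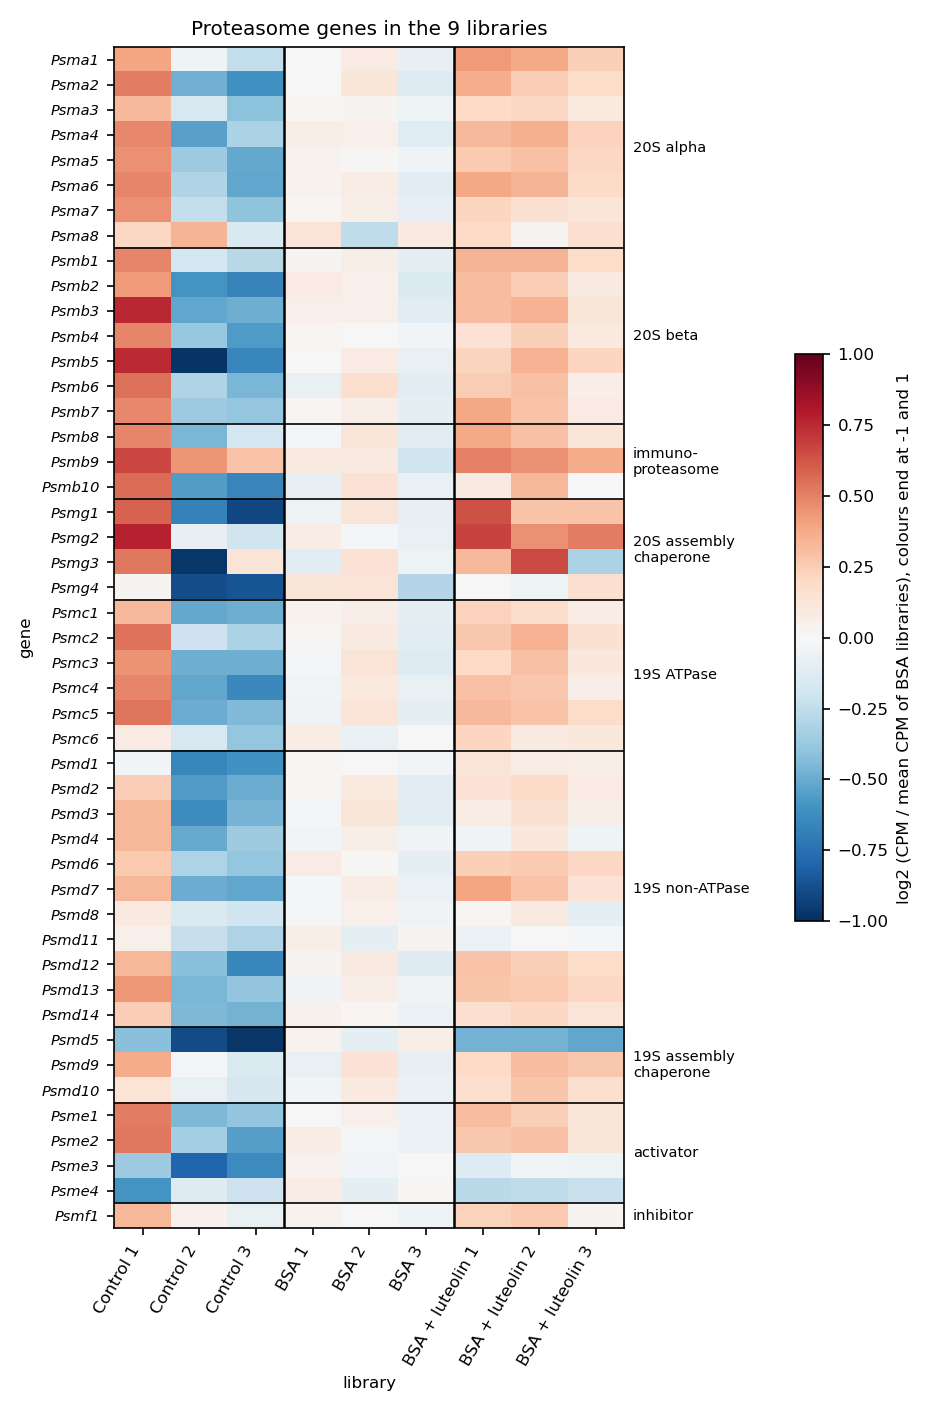
Each of 47 proteasome genes (rows, by class) in each of 9 libraries (columns), coloured by the log2 ratio of its CPM to the mean of the 3 BSA libraries, with colours ending at -1 and 1. Control 2 and Control 3 are below the BSA libraries for most genes, Control 1 and the luteolin libraries are above them, and the rows of Psmb9, Psmd5, Psme3 and Psme4 run differently.

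BSA against Control asked what IgE and antigen did. With all 3 Control libraries 0 of 47 members rose and 0 fell by edgeR's quasi-likelihood test, against 2.25% and 1.02% of all genes, and the median log2 change was 0.07. At an unadjusted p under 0.05 there were 2 higher and 1 lower. DESeq2 called 2 higher and 1 lower (5.18% and 5.43% of all genes), and limma called 0 and 0. Psmd5 had the largest difference, log2 0.73 (SE 0.17, adjusted p = 0.0691), followed by Psme3 at 0.58 (SE 0.14, adjusted p = 0.0716), which was at 154, 114 and 127 CPM in Control, below all 3 BSA libraries. Psmb9 lay at -0.47 (SE 0.15, adjusted p = 0.146), with 47.7, 40.8 and 36.7 CPM in Control, above all 3 BSA libraries.

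BSA + luteolin against Control gave a like outcome. Of 47 members 0 rose and 0 fell (edgeR quasi-likelihood test), against 0.285% and 2.75% of all genes, with 2 and 0 at an unadjusted p under 0.05, 1 and 0 by DESeq2 (3.04% and 8.89% of all genes) and 0 and 0 by limma. The median log2 change was 0.28. Psme3 was at 0.52 (SE 0.13, adjusted p = 0.0808) and Psmb9 at -0.03 (adjusted p = 0.899), and this comparison shares its Control libraries with the previous one and its BSA + luteolin libraries with that of luteolin.

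Control replicate 1 was high in most members. It exceeded Control 2 and Control 3 in 45 of 47 members, Psma8 and Psme4 being the exceptions, against 43.4% of all genes, it was above all 8 other libraries in 34 members (20.0% of all genes), and it was at least 1.5-fold above the mean of Control 2 and 3 in 35 (16.0% of all genes). Its median fold over the mean of Control 2 and 3 was 1.79 for the members and 0.98 for all genes. Psmb5 had the highest fold, 2.93, with 93.7 CPM in Control 1 and 28.3 and 35.6 CPM in the others, and Psme4 the lowest, 0.741, with 52.0 CPM against 72.2 and 68.2 CPM. The summed level of all members was 6435 CPM in Control 1, 3829 and 3720 CPM in Control 2 and 3, 5110, 5245 and 4804 CPM with BSA, and 5854, 5859 and 5417 CPM with BSA + luteolin. Across the 47 members the log2 fold of Control 1 over its group and the log2 change with luteolin, which share no library, had a Pearson r of 0.47 and a Spearman rho of 0.39. Over all genes tested r was 0.33, and the points share the libraries. Exon length had a rho of -0.64 with the fold of Control 1 over the members.

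Without Control replicate 1 both comparisons with Control changed. The 2 Control libraries that remain are also those with Mcpt8 at 21.8 and 18.7 CPM and the lowest neutrophil markers, though Prss34 in them, at 651 and 611 CPM, was above all BSA libraries. The part of these markers in the counts was not tested. BSA against Control then gave 36 members higher and 1 lower, against 22.6% and 22.4% of all genes, with a median log2 change of 0.37 in the members and -0.01 in all genes. By class, all 6 ATPases, 10 of 11 non-ATPases, 6 of 8 alpha subunits, 6 of 7 beta subunits, 3 of 4 activators, 2 of 4 core chaperones, 2 of 3 immunoproteasome subunits, 1 of 3 chaperones of 19S assembly and 0 of 1 inhibitor were higher. Psmb5 was at log2 0.74 (adjusted p = 5.27e-05), Psmd5 at 0.89 (adjusted p = 9.09e-07), Psme3 at 0.66 (adjusted p = 5.89e-06) and Psmb8 at 0.25 (adjusted p = 0.0353), while the 1 lower gene was Psmb9 at -0.40 (adjusted p = 0.007). BSA + luteolin against Control then gave 41 higher and 0 lower, against 29.9% and 30.1% of all genes, with a median of 0.63. Psmb5 stood at 1.04 (adjusted p = 1.6e-07), Psmb9 at 0.08 (adjusted p = 0.45) and Psme4 at -0.09 (adjusted p = 0.327). The means ran upward from Control 2 and 3 through BSA to BSA + luteolin in 41 of 47 members and in 28.4% of all genes, and the 6 others were Psmb9, Psmd5, Psmd11, Psme3, Psme4 and Psma8. Leaving out another Control library moved the medians the other way. In BSA against Control the median was -0.07 without Control replicate 2, with 16 of 47 members above 0. Without Control replicate 3 it was -0.10, with 14 above 0. In BSA + luteolin against Control the medians without these libraries were 0.15 and 0.14. Which of the Control libraries stands for untreated cells cannot be told from these data.

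**Figure D5:**
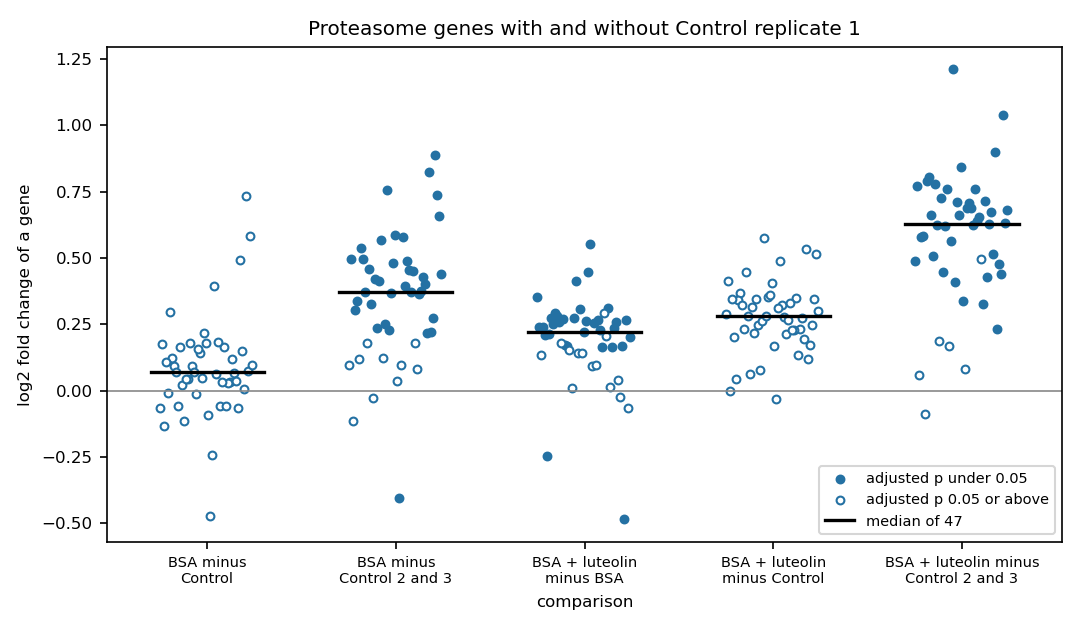
Log2 fold change of each of 47 proteasome genes (points, filled where the adjusted p was under 0.05) in BSA minus Control and BSA + luteolin minus Control, with and without Control replicate 1, and in BSA + luteolin minus BSA. Lines give the median, which moves from 0.07 to 0.37 and from 0.28 to 0.63 when Control 1 is left out. Fits without Control 2 or Control 3, where these medians are lower, are not shown.

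Genes that work with the proteasome but have no Psm symbol were followed as 4 lists. Of 9 tested genes for other subunits, assembly and docking, 3 rose with luteolin and 1 fell, against 18.1% and 21.9% of all genes. Pomp, the maturation factor of the core, was at 77.5, 75.8 and 71.0 CPM with BSA and at 94.6, 97.9 and 84.5 CPM with BSA + luteolin, a rise of log2 0.31 (SE 0.07, adjusted p = 0.00185). The 19S-bound deubiquitinase Uchl5 rose by log2 0.28 (adjusted p = 0.00534), the small subunit Sem1 by 0.20 (adjusted p = 0.0333), and the ubiquitin ligase Ube3c fell by 0.21 on that scale (adjusted p = 0.0225). The median change of the 9 with luteolin was 0.03.

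A pair of transcription factors known to drive proteasome genes was lower with luteolin. Nfe2l2 was at 184, 168 and 186 CPM with BSA and at 99.9, 94.5 and 98.1 CPM with BSA + luteolin, and fell by 0.88 on the log2 scale (SE 0.06, adjusted p = 2.58e-09). Nfe2l1 was at 217, 212 and 210 CPM with BSA and at 174, 178 and 172 CPM with BSA + luteolin, and fell by 0.28 (SE 0.05, adjusted p = 0.000463). Both genes had separate groups. These are mRNA levels, and both factors are known to be regulated largely as proteins. The part of either factor in the change of the members was not tested. Of the 5 genes in that list 2 fell and 1 rose (21.9% and 18.1% of all genes), the latter being Vcp, the ATPase that extracts ubiquitinated proteins, by log2 0.20 (adjusted p = 0.00587), and the median change of the 5 was -0.02.

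Among 11 genes for ubiquitin and its shuttle factors 2 rose with luteolin, Ubqln1 and Ubqln4, and 4 fell, against the same shares of all genes. Ubb, a polyubiquitin gene, had means of 875 CPM in Control, 1316 CPM with BSA and 801 CPM with BSA + luteolin, and its fall with luteolin was 0.71 (adjusted p = 1.97e-07) and its rise with BSA 0.59 (adjusted p = 0.0483). Zfand5, which activates the 26S proteasome, was at 250, 217 and 260 CPM with BSA and at 78.5, 74 and 77.7 CPM with BSA + luteolin, and fell by 1.66 (SE 0.07, adjusted p = 3.19e-12). The remaining falls were those of Zfand2a and Ubqln2, and the median change of the 11 was 0.00.

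A list of 7 genes held class I peptide loading, the step after the immunoproteasome, together with the regulators Nlrc5 and Irf1. With luteolin 4 of the 7 rose and 1 fell, against 18.1% and 21.9% of all genes. Those that rose were Tap1, Tap2, Tapbp and B2m, at log2 0.15 to 0.28, and the median of the 7 was 0.15. Irf1, a factor known to drive Psmb9 and Tap1, was at 16.6, 19.6 and 16.5 CPM with BSA and at 9.27, 8.22 and 7.59 CPM with BSA + luteolin, and fell by 1.07 on the log2 scale (SE 0.12, adjusted p = 3.73e-06). Its groups were separate. The part of Irf1 in the change of Psmb9 or Tap1 was not tested. Against Control, Irf1 fell by 1.5 in luteolin-treated cells (adjusted p = 0.00869).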

How the data were processed

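RNA of BMMCs was sequenced as stranded mRNA libraries, 3 each from Control, BSA and BSA + luteolin cells. The authors filtered reads with HTStream, aligned them to mm10 with STAR 2.7.0f (versions from the submitters' processing notes) and deposited the raw read counts of each Ensembl gene, with no filter or scaling. The annotation release, the strand setting and the treatment of multi-mapping reads are not given in the sources used here. Libraries were grouped by their labels.

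Members, lists, motifs and alternatives were chosen with earlier results of these data known, and a pair of genes of the related lists is not reported here. Symbols, coordinates and exon lengths came from GENCODE (GRCm38). Genes with a median CPM above 1 over the 9 libraries (11560) were tested with edgeR 4.0.16 in R 4.3.3 (quasi-likelihood test, TMM factors, two-sided, Benjamini-Hochberg, threshold 0.05) on the 6 libraries of each comparison. CPM are TMM-normalized, and a log2 fold change is edgeR's. Values by library are given for Psmb5 to Psmb10, Psme1 to Psme4 and, in each comparison, up to 5 members with the largest rise and fall past the threshold. The method was tested on simulated data with larger changes than those of the members in BSA + luteolin against BSA. That test does not cover changes of their size. DESeq2 1.42.0 and limma 3.58.1 were alternatives, beside other scalings, no filter, all 9 libraries in 1 fit, a replicate block, a length offset and each library left out. Replicates differed by more than sampling noise (chi-square per degree of freedom at least 3.93 in every pair). Depth was 9515004 to 24605689 counts, and 3 counts corresponded to 0.121 to 0.291 CPM.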

Additional observations from a re-analysis of the deposited data

How the results depend on the processing

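In BSA + luteolin against BSA, 31 members were higher and 2 lower (18.1% and 21.9% of all genes). The number of higher members was 31 to 38, with the lower at 1 or 2, under DESeq2, limma, DESeq2's size factors, upper quartile scaling, no filter and library size alone. All genes called higher were 16.9% to 18.1% with the first 3, 10.5% with no filter, 28.3% with upper quartile scaling (37 members) and 33.4% with library size alone, which gave 38 and 1, with the median log2 change of all genes at 0.13 and of the members at 0.33. It was 14 with the length offset (15.2%) and 0 with all 9 libraries in the fit, where 0 were lower. Leave-one-out gave 17 to 34 higher and 2 lower. In BSA against Control the main counts were 0 higher and 0 lower. Higher calls were 2 with DESeq2 (5.18% of all genes), 2 without the filter (1.83%), 2 with all 9 libraries in the fit (5.83%) and 1 with the length offset (2.56%). Lower calls were 1 with DESeq2 (5.43%), 1 with library size alone (2.52%) and 1 with all 9 libraries (3.73%). Leave-one-out gave 0 to 36 higher and 0 to 1 lower, the upper values without Control replicate 1 (22.6% and 22.4%). In BSA + luteolin against Control 1 member was higher with each of DESeq2 (3.04%), no filter (0.472%), all 9 libraries (3.11%) and the length offset (0.953%), and leave-one-out gave 0 to 41, again highest without Control replicate 1 (29.9%). In BSA against Control Psmb6 and Psmb8, at -0.01 each, ran under leave-one-out from -0.20 to 0.34 and from -0.20 to 0.25, the upper values without that library (adjusted p = 0.00777 and 0.0353). The cause of these shifts was not tested.

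Samples of the 3 groups share only a replicate number. Correlations of deviations between same-numbered libraries ran from -0.26 to 0.31, and not every pair was above 0.1, so the numbers were not taken to pair the samples. With the replicate block 34 members were higher and 2 lower with luteolin against BSA (22.8% and 25.5% of all genes), 21 and 3 with block and length offset together (18.8% and 22.5%), and 0 and 0 in BSA against Control. Psma8 and Psmg3, at low levels, had the widest standard errors with luteolin against BSA, 0.26 and 0.22 on the log2 scale.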
